A study of Homo sapiens with 18 samples.

Results

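The rows examined here are the genes and variants of U1 snRNA, the small nuclear RNA that opens splicing by pairing with the 5′ splice site of a pre-mRNA. They were taken from a count table of noncoding RNA features by name, as the rows named RNU1-, RNVU1 or U1_snRNA that span at most 500 nt. The rule found 121 of the 175935 rows, or 102 when rows holding identical counts in every library were taken once. By GENCODE name they were the 4 genes RNU1-1 to RNU1-4, 21 RNVU1 variants, 94 RNU1 pseudogenes and 2 rows that hold no such gene and are named U1_snRNA. No row was chosen for its counts. The name was checked against the genome: 119 of the 121 rows hold an snRNA gene of the GENCODE annotation (hg38), and no U1 row overlaps another.

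The libraries came from HEK293T, a human embryonic kidney cell line. Cells received either an siRNA against SSB, the gene of the La protein (siSSB), or a scramble siRNA (control), both with the RNAiMAX reagent, and were collected 48 hours later. RNA came from whole cells (total), the nuclear fraction (nuc) or the cytoplasmic fraction (cyto), with 3 libraries in each of the 6 groups, described by the study as biological replicates. All groups share the same cell line, transfection reagent, mirVana PARIS extraction and NEBNext small RNA kit, and all titles carry "Plus_PNK". The column sums ran from 21565995 to 158244813, and the U1 rows held 27918 to 158793 counts per library. Each nuc column sum was larger than any cyto one. The siRNA target is an mRNA, outside this noncoding table, so its level was not analysed here. Read against their labels, the fractions gave mixed signs. Mitochondrial tRNA rows had 1.28 to 3.41 counts per U1 count in control cyto and 0.0923 to 0.177 in control nuc. The snoRNA rows, nucleolar RNAs, had 6.96 to 8.93 counts per U1 count in control cyto and 34.2 to 50.2 in control nuc. MALAT1, a nuclear lncRNA, went against the labels, with 102 to 214 counts in control nuc and 419 to 698 in control cyto, and RN7SL1, the RNA of the cytoplasmic signal recognition particle, overlapped between them (982 to 4260 and 717 to 1825). These are raw counts. Per U1 count RN7SL1 had 0.00745 to 0.0329 in control nuc and 0.0211 to 0.0308 in control cyto. Fewer cells and less RNA per cell cannot be told apart in such bulk libraries.

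U1 snRNA is transcribed by RNA polymerase II and exported to the cytoplasm, where a ring of Sm proteins binds it at a short uridine-rich stretch. It is trimmed, its cap is methylated further, and it is then taken back into the nucleus. Its 5′ end pairs with the 5′ splice site, its first stem-loop binds the protein SNRNP70 and its second binds SNRPA. The human genome carries several identical gene copies, a set of expressed variants (RNVU1) and many pseudogenes. La binds the oligouridine ends of new RNA polymerase III transcripts and also binds precursors of some polymerase II snRNAs.

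The sequence that most U1 counts fell on is shown first, since every other row is described by how it departs from it. It is given as DNA, 5′ to 3′, from hg38, as RNU1-1 (chr1:16514122-16514285, minus strand, intergenic in GENCODE). Capitals mark, in order, the bases that pair with the 5′ splice site (ACTTACCTG, bases 3 to 11), the loop bound by SNRNP70 (GATCACGAAGG, bases 28 to 38), the loop bound by SNRPA (ATTGCACTCC, bases 65 to 74) and the Sm site (AATTTGTGG, bases 125 to 133), counted from 1 at the 5′ end.
RNU1-1: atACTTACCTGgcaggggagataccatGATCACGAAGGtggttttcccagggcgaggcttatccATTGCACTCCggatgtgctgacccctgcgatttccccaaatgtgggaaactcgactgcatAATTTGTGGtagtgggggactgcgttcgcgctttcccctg

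These 164 bases are the same, base for base, in 8 rows: RNU1-1, RNU1-2, RNU1-3, RNU1-4, RNVU1-18 and RNVU1-29 on chromosome 1, and RNU1-27P and RNU1-28P on chromosome 14, the last 2 carrying pseudogene names. The 6 next most counted rows are shown because the fractions divided them. Capitals mark the bases that differ from RNU1-1.
RNVU1-7: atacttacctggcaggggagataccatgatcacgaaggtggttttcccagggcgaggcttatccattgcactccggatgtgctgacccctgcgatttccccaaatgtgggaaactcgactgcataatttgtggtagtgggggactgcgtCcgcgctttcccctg
RNU1-11P: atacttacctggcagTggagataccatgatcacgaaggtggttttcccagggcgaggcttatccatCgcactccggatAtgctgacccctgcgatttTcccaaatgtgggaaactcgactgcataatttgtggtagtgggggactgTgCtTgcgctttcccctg
RNVU1-1: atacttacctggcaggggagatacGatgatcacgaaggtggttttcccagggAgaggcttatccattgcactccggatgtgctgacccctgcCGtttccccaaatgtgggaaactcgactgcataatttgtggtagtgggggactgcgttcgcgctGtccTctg
RNVU1-19: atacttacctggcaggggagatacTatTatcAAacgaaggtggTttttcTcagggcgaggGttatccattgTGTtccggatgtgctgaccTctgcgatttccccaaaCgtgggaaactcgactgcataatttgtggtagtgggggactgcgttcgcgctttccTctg
RNU1-138P: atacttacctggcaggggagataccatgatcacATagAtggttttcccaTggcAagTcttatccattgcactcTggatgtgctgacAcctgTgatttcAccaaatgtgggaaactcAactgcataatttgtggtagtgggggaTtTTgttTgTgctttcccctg
RNVU1-17: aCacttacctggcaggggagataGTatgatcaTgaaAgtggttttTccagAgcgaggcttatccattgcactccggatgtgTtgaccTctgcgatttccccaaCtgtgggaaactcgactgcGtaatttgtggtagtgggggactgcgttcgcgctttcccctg

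RNVU1-7 (chr1:148038753-148038916, minus strand, intergenic) differs from RNU1-1 by 1 base, T150C, near its 3′ end. RNU1-11P (chr6:13214056-13214219, plus strand) lies inside the protein-coding gene PHACTR1 and differs at 7 positions. RNVU1-1 (chr1:148362370-148362533, minus strand) lies inside the lncRNA gene LINC01138 and differs at 6. RNVU1-19 (chr1:120850819-120850985, minus strand), inside a lncRNA gene known by its identifier only, differs at 13 aligned positions, 3 of them inserted bases. RNU1-138P (chr4:113420323-113420486, plus strand) lies opposite to the coding strand of CAMK2D and differs at 16. RNVU1-17 (chr1:143699456-143699619, minus strand, intergenic) differs at 11 and is the one among these whose change T2C falls beside the splice-site pairing bases. Each of these 6 keeps the 9 pairing bases and the Sm site letter for letter. The SNRNP70 loop is intact in RNVU1-7, RNU1-11P and RNVU1-1 and changed in RNVU1-19, RNU1-138P and RNVU1-17, while the SNRPA loop is intact in RNVU1-7, RNVU1-1 and RNVU1-17.

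Over the 121 U1 rows, the pairing bases were found in 39, the SNRNP70 loop in 26, the SNRPA loop in 31 and the Sm site in 57. Among 4259 other rows of like length (175 to 226 nt), searched on both strands, the shares were 0.188%, 0.047%, 3.83% and 0.211%. A match is a run of letters and no more. None of these 4 searches overlap each other in RNU1-1.

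Most U1 counts fell on the 8 identical copies. Over all libraries they held 86.6% of all U1 counts, RNVU1-7 held 6.16%, the 4 rows RNU1-11P, RNVU1-1, RNVU1-19 and RNU1-138P together held 5.51%, and all other rows held 1.76%. The 22 rows with more than 1000 counts held 99.4%. A further 49 rows had 10 to 1000 counts, 36 had 1 to 9 and 14 had none in any library. Below the identical copies the order of total counts was RNVU1-7 (91177), RNU1-11P (24910), RNVU1-1 (23239), RNVU1-19 (22199), RNU1-138P (11243), RNVU1-17 (7679), RNU1-89P (1807), RNU1-67P (1474) and RNVU1-2 (1265). The rows are nearly of one length (212 to 217 nt for these and the copies), so that the order per length was the same down to RNVU1-2. The first 3 of the variants after RNVU1-7 lay close: in control total, RNU1-11P had 1478, 1373 and 1905 counts, RNVU1-1 had 1241, 1347 and 1873, and RNVU1-19 had 1066, 1220 and 1718. These ranges overlap, and reads that match several rows could not be placed among them.

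**Figure D1:**
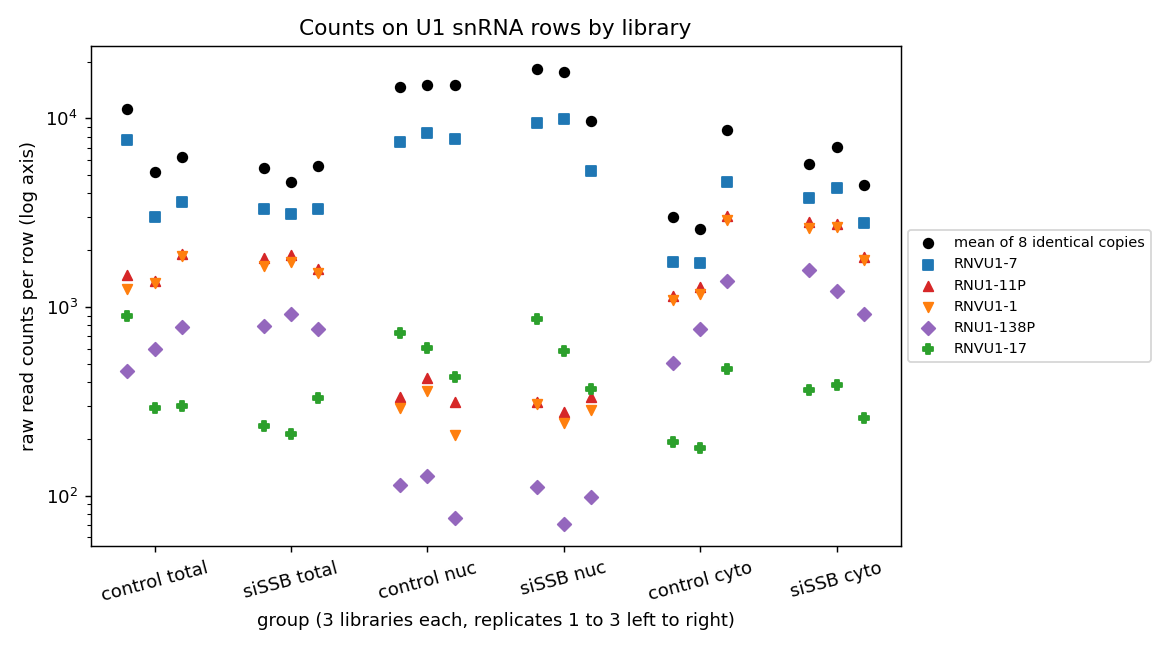
Raw read counts per row on a log axis in each of the 18 libraries, for the mean of the 8 identical copies and 5 variants. RNU1-11P, RNVU1-1 and RNU1-138P sit far below the identical copies in the nuc libraries and closer to them in the cyto libraries, while RNVU1-7 keeps nearly the same distance throughout.

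The identical copies did not carry identical counts. The 4 copies on the plus strand (RNU1-27P, RNVU1-29, RNU1-2 and RNU1-4) had 170918 to 174534 counts over all libraries, and the 4 on the minus strand (RNU1-28P, RNVU1-18, RNU1-1 and RNU1-3) had 146263 to 149968. Every plus-strand copy exceeded every minus-strand copy in each of the 18 libraries. The ratio of their means ran from 1.11 in control cyto 2 to 1.29 in siSSB nuc 3, with 1.26 in control total 3. The table gives the plus-strand copies a row of 212 nt and the minus-strand copies one of 214 nt. Since the transcripts are the same letters, the counts of one copy cannot be read as the output of one gene. The 8 rows are read below as 1 sequence. Counts of tested and called rows still take them as 8, so those counts are not of independent rows.

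The knockdown comparisons asked whether U1 levels differed in cells given the siRNA against SSB. No U1 row passed the test in total, nuclear or cytoplasmic RNA. In total RNA the 8 identical copies together had 89341, 41744 and 50170 counts in control and 43900, 36683 and 44717 in siSSB. Control library 1 stood above the other 5 in these counts. On the TMM scale the U1 sum was 1797, 799.9 and 890.3 CPM (counts scaled to a common library size) in control and 881.6, 571.5 and 849.5 in siSSB, so that the groups overlapped. The log2 fold changes of the 8 copies lay between -0.71 and -0.62 (SE 0.38 for each, n = 3 and 3), with edgeR adjusted p from 0.399 to 0.472. The direction belongs to the scaling. The log2 ratio of the U1 sum was -0.60 under TMM, -0.01 by library size alone and 0.16 when scaled to snoRNA counts, and without single libraries it ran from -0.83 to -0.14, with -0.14 without control total 1 and -0.31 without siSSB total 2.

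Among the 36 U1 rows tested in total RNA by edgeR's quasi-likelihood test, 0 passed an adjusted p of 0.05, where 1.34% of all features tested did. Unadjusted p was under 0.05 for 3 of them, RNVU1-15 (-1.19 ± 0.41 SE on the log2 scale, adjusted p = 0.151), RNVU1-17 (-1.09 ± 0.45, adjusted p = 0.25) and 1 row named U1_snRNA on chromosome 12 (0.90 ± 0.39, adjusted p = 0.275). DESeq2 called 0, with 2 under an unadjusted 0.05. RNVU1-17 had 893, 291 and 298 counts in control total and 235, 213 and 331 in siSSB total. The groups overlap, and control total 1 alone lies apart. With no filter on low counts RNVU1-17 was called lower (-1.09 ± 0.28, adjusted p = 0.0207 by edgeR), the only U1 call in any knockdown fit run. Of the variants, RNU1-11P (0.04 ± 0.26), RNVU1-1 (0.02 ± 0.26) and RNVU1-19 (0.16 ± 0.26) had values near 0, and RNU1-138P (0.31 ± 0.24) was a little above, none passing the test.

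In the nuclear fraction the 8 copies together had 117046, 120354 and 119949 counts in control and 146787, 140925 and 77634 in siSSB, the third siSSB library being low. Their log2 fold changes lay between -0.09 and -0.05 (SE 0.25 to 0.26, edgeR adjusted p from 0.914 to 0.951). Of the 31 U1 rows tested by edgeR, 0 passed and 0 had an unadjusted p under 0.05, against 0.378% of all features called; DESeq2 called 0, with 2 at an unadjusted p under 0.05. RNVU1-7 had 7541, 8328 and 7756 counts in control nuc and 9488, 9891 and 5271 in siSSB nuc, with overlapping ranges (-0.04 ± 0.26).

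In the cytoplasmic fraction the 8 copies had 23903, 20774 and 69541 counts in control and 46080, 56488 and 35493 in siSSB. Control cyto 3 exceeded all others in these raw counts, and it was also the largest cyto library. The ranges overlapped. On the TMM scale the U1 sum was 1235, 1247 and 2391 CPM in control and 1968, 2660 and 1624 in siSSB. The log2 fold changes of the copies were 0.31 to 0.35 (SE 0.34 to 0.35, edgeR adjusted p from 0.911 to 0.919). Of the 41 U1 rows tested by edgeR, 0 passed and 5 had an unadjusted p under 0.05, against 0.291% of all features called, and DESeq2 called 0 with 3 under an unadjusted 0.05. These counts rest on control cyto 3 and on the scaling. Without control cyto 3, 17 of 42 rows had an unadjusted p under 0.05, all 8 copies among them at 0.79 to 0.85, and scaled to snoRNA counts 19 of 41 did, all 8 copies among them at 0.74 to 0.79, with 0 passing after adjustment by edgeR in either. Those 5 rows under TMM were RNU1-77P (1.29 ± 0.41), RNU1-19P (0.91 ± 0.29), RNU1-88P (0.89 ± 0.30), RNVU1-2 (0.62 ± 0.26) and RNVU1-15 (-0.68 ± 0.27), with edgeR adjusted p of 0.387 to 0.644. The difference of the knockdown effect between nucleus and cytoplasm passed for 0 of 50 rows by edgeR (9 with an unadjusted p under 0.05, smallest adjusted p 0.958), where 0.0133% of all features passed, and for 0 by DESeq2 (8 unadjusted). For the 8 copies this difference was -0.57 to -0.51 (SE 0.43).

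**Figure D2:**
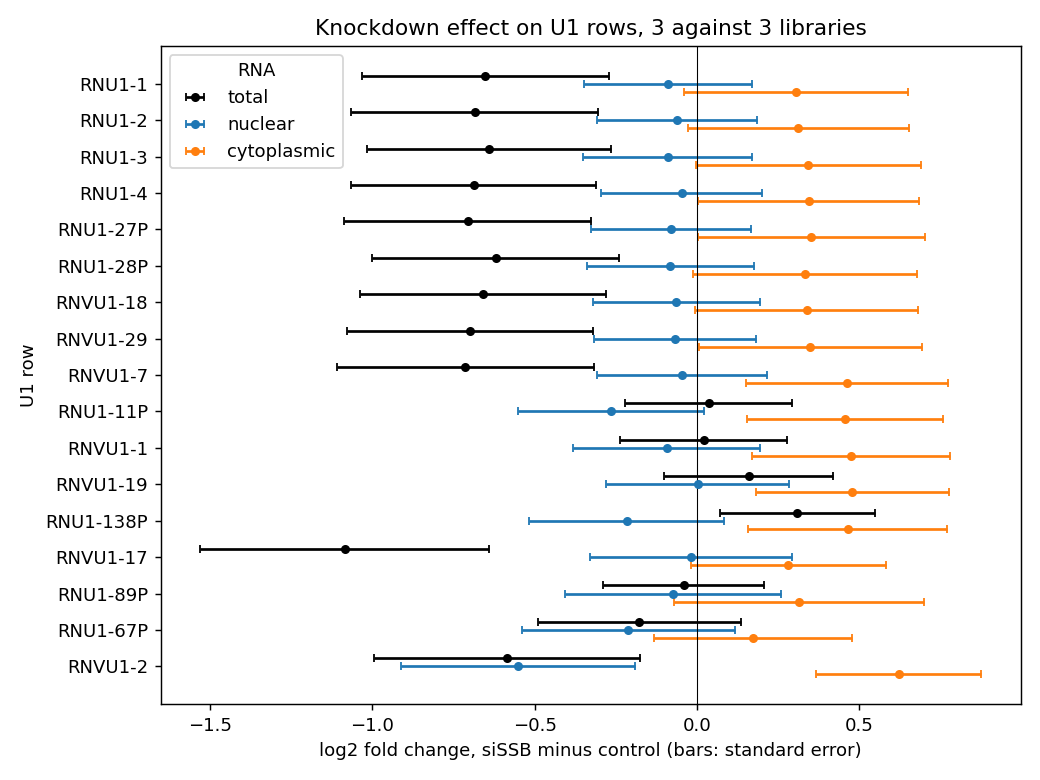
Log2 fold change of siSSB over control with its standard error for 17 U1 rows in total, nuclear and cytoplasmic RNA, 3 libraries against 3. The 8 identical copies lie together at about -0.7 in total RNA, near 0 in the nucleus and near 0.3 in the cytoplasm, and no row shown passed the test.

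The other spliceosomal and related snRNAs, from a list of 20 of which 15 had a row, were read beside U1. In total RNA 0 of 14 tested rows passed, with a median log2 fold change of -0.74 beside -0.16 for the U1 rows and -0.01 for all features. The U1 median is over rows that are mostly variants and pseudogenes, while the 8 identical copies had -0.71 to -0.62. RNU2-1, the RNA of the U2 particle that binds the branch point, had -0.93 ± 0.41. RNU11, the counterpart of U1 in the minor spliceosome, had -1.25 ± 0.47. RNU7-1, which acts in histone mRNA 3′ end formation, had -1.07 ± 0.27, with the smallest edgeR adjusted p of the list at 0.0796. In the nuclear and cytoplasmic fractions 0 of 14 passed in each, with medians of -0.38 and -0.04.

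The comparison of fractions asked where U1 RNA lies. In control cells the 8 copies together had 117046 to 120354 counts in each nuc library and 20774, 23903 and 69541 in the cyto libraries. These raw counts were higher in each nuc library, but the nuc libraries were also larger. By library size alone the copies had a log2 fold change of -0.45 to -0.30, with 0 called. On the TMM scale RNU1-1 stood at 367.5, 443.8 and 477.5 CPM in nuc and 26.41, 24.25 and 51.71 in cyto. The 8 copies were higher in the nucleus by a log2 fold change of 3.65 to 3.81 in control cells (SE 0.34 to 0.35, edgeR adjusted p at most 2.79e-10) and of 3.10 to 3.25 in siSSB cells (SE 0.32 to 0.33, at most 1.83e-08). RNVU1-7, whose reads mostly cannot be told from those of the copies, had similar values, 3.63 ± 0.33 and 2.96 ± 0.32. RNVU1-17 was also higher in the nucleus, at 3.11 ± 0.33 and 2.65 ± 0.35.

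Not all U1 rows did this. In control cells 30 of 44 tested rows passed, 23 higher and 7 lower in the nucleus, where 23.3% of all features passed, 9.21% higher and 14.1% lower. In siSSB cells 31 of 43 passed, 22 higher and 9 lower, where 25.3% of all features passed, 10.8% higher and 14.5% lower. These shares cover features of all lengths. Of features of at most 500 nt, fitted alone, 75.89% passed in control cells and 73.52% in siSSB cells. The higher U1 rows in the fit of all features included all 8 copies, counted here as 8 rows though they are 1 sequence. RNVU1-2 (3.99 ± 0.40 in control, 2.65 ± 0.35 in siSSB) and RNU1-88P (3.98 ± 0.43 and 2.08 ± 0.36) were the 2 highest in control cells, while in siSSB cells both lay below the 8 copies. RNU1-67P (2.08 ± 0.35 and 1.52 ± 0.36) also passed in both, and RNU1-89P passed in control cells (1.00 ± 0.36, edgeR adjusted p = 0.0432) and missed in siSSB cells (0.46 ± 0.36, adjusted p = 0.389).

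The 4 most counted variants after RNVU1-7 lay on the other side. RNU1-11P had 334, 421 and 312 counts in control nuc and 1137, 1280 and 3035 in control cyto, with no overlap and in the order opposite to that of the copies. In siSSB cells it had 314, 276 and 334 in nuc and 2810, 2761 and 1836 in cyto. RNVU1-1 and RNVU1-19 gave nearly the same picture, RNVU1-1 with 210 to 357 counts in control nuc and 1084 to 2889 in control cyto, and RNVU1-19 with 190 to 303 and 1083 to 2799. RNU1-138P had 114, 127 and 76 counts in control nuc and 503, 761 and 1367 in control cyto. On the TMM scale RNU1-138P was lower in the nucleus in both (-1.03 ± 0.32, adjusted p = 0.0152, and -1.86 ± 0.34, adjusted p = 0.000111 by edgeR). RNU1-11P was lower in siSSB cells (-1.17 ± 0.31, adjusted p = 0.00624) and had -0.29 ± 0.30 in control cells (adjusted p = 0.547). RNVU1-1 (-1.25 ± 0.32 in siSSB, -0.53 ± 0.31 in control) and RNVU1-19 (-1.27 ± 0.32 and -0.64 ± 0.30) likewise passed in siSSB cells and missed in control cells. The difference between siSSB and control cells missed the test for each of these 4 rows (interaction, edgeR adjusted p of 0.958 to 0.967), so passing in one cell state alone is no shown contrast.

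Less counted rows went further down. RNU1-16P (-1.73 ± 0.41 in control, -2.65 ± 0.45 in siSSB), RNU1-132P (-1.55 ± 0.43 and -2.14 ± 0.46) and RNU1-22P (-1.61 ± 0.45 and -1.54 ± 0.44) were lower in the nucleus in both. RNU1-16P, inside DCUN1D2, had 8, 6 and 8 counts in control nuc and 56, 79 and 168 in control cyto, with no overlap. RNVU1-34 (-3.28 ± 1.06, edgeR adjusted p = 0.0213), RNVU1-22 (-2.26 ± 0.82, 0.0438) and RNU1-139P (-2.13 ± 0.78, 0.0451) passed in control cells and missed in siSSB cells. RNVU1-34 rests on few reads, 1, 0 and 0 counts in control nuc and 5, 15 and 24 in control cyto. In control nuc RNU1-132P had 8, 11 and 5 counts, RNU1-22P 3, 15 and 7, RNVU1-22 0, 2 and 1, and RNU1-139P 1, 2 and 0. As the nuc libraries were larger, these rows, RNU1-16P and RNVU1-34 passed the filter on low counts in control cells only through cyto. The filter thus favoured rows higher in cyto, and the direction of these calls is a description.

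All these fold changes depend on how the fractions are scaled to each other. By library size alone the 8 copies had -0.45 to -0.30 in control cells and -0.70 to -0.56 in siSSB cells, and scaled to snoRNA counts -2.22 to -2.06 and -2.73 to -2.59, so that no U1 row was then higher in the nucleus. Under these scalings 30 and 44 of the 44 rows were lower in control cells, where 96.25% and 97.51% of all features were. The same scalings moved the median of all features from -0.27 under TMM to -4.33 and -6.11. Relative to that median RNU1-1 stood at 3.92, 3.88 and 3.89 in control cells, RNVU1-7 at 3.90, 3.84 and 3.84, RNU1-11P at -0.02, -0.10 and -0.10 and RNU1-138P at -0.76, -0.86 and -0.89. A change of scaling shifts all rows of a comparison by nearly the same amount. The distance between the copies and these variants was therefore bound to stay nearly the same, and it is no separate result. The number of lower rows in control cells also rests on single libraries, with 4 without control cyto 3, 2 without control nuc 1, and 1 without control nuc 3, and fell from 7 to 1 when features of at most 500 nt alone were fitted. In that fit 33.5% of the features were higher and 42.39% lower.

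**Figure D3:**
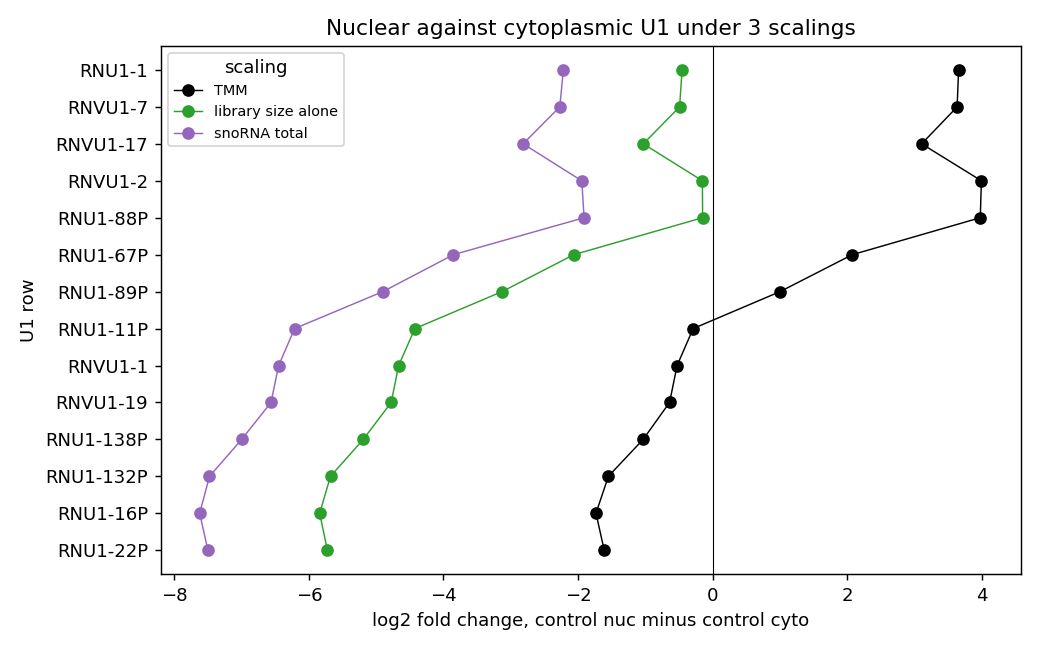
Log2 fold change of control nuc over control cyto for 14 U1 rows under TMM, library size alone and snoRNA total as scaling. The 3 lines run nearly parallel because a change of scaling shifts all rows nearly alike. RNU1-1, RNVU1-7, RNVU1-17, RNVU1-2 and RNU1-88P are above 0 under TMM and below 0 under the other scalings.

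The other snRNAs were set beside these values. In control cells 13 of the 15 tested were higher in the nucleus under TMM, with a median of 2.48, and in siSSB cells 13 of 14, with a median of 2.12. RNU2-1 had 3.11 ± 0.32 and RNU11 had 4.18 ± 0.34 in control cells. RNU7-1 was the 1 that was lower, at -2.28 ± 0.33.

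Shares within the U1 family are free of the scaling. The 4 variants RNU1-11P, RNVU1-1, RNVU1-19 and RNU1-138P took 12.5%, 15.4% and 11.7% of U1 counts in control cyto and 0.821%, 0.899% and 0.609% in control nuc. The means were 13.2% ± 1.97 and 0.777% ± 0.15 (SD, n = 3 each), a ratio of 17. In siSSB cells they took 15.4%, 12.8% and 13.8% in cyto and 0.654%, 0.527% and 1.16% in nuc, with means of 14.0% ± 1.33 and 0.781% ± 0.336 and a ratio of 17.9. The fractions did not overlap in either. An exact two-sided permutation test gave p = 0.1 in each case, the smallest that 3 against 3 libraries allow, and 0.4 after Benjamini-Hochberg adjustment over the 20 share comparisons made. The sum and the fractions had been seen before these shares were formed, so the values are a description.

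The mean share in total RNA lay between those of the fractions, although siSSB total 2 (13.1%) exceeded siSSB cyto 2 (12.8%). The 4 variants took 4.11%, 9.0% and 10.2% of U1 counts in control total and 10.9%, 13.1% and 9.76% in siSSB total. The means of 7.78% ± 3.24 and 11.3% ± 1.72 did not separate (exact permutation p = 0.2), and control total 1 was the lowest of all 6. Without control total 1 the control mean was 9.62%, an alternative added after the data were seen. Control and siSSB shares were 0.777% and 0.781% in the nucleus (exact permutation p = 1) and 13.2% and 14.0% in the cytoplasm (exact permutation p = 0.6). The identical copies mirrored this, with 92.1% ± 0.67 of U1 counts in control nuc and 77.8% ± 3.05 in control cyto.

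**Figure D4:**
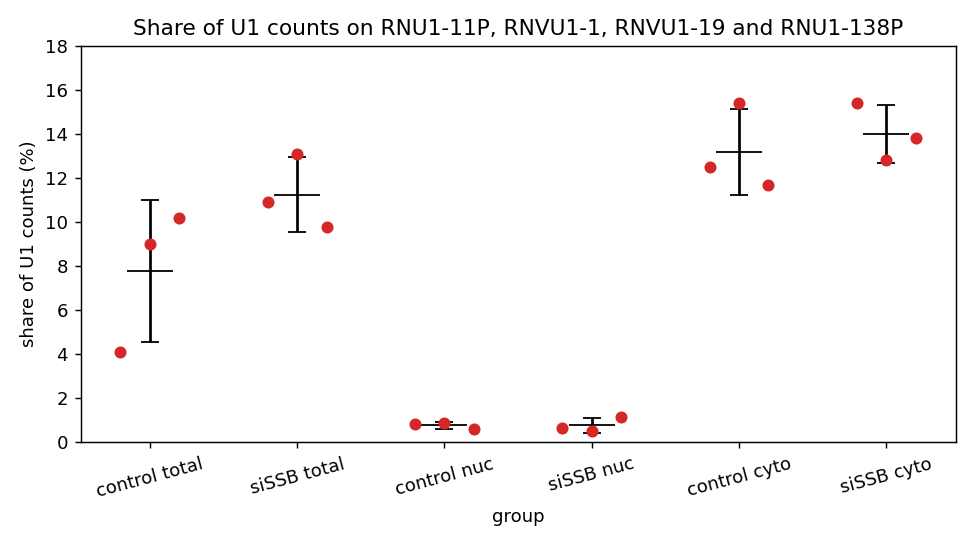
Share of all U1 counts, in percent, that fell on RNU1-11P, RNVU1-1, RNVU1-19 and RNU1-138P together in each library, with the mean and SD of each group. The nuc libraries lie at 0.527% to 1.16%, the cyto libraries at 11.7% to 15.4%, and the total libraries spread between 4.11% and 13.1%.

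RNVU1-7, 1 base away from the copies, kept a near constant proportion to them. It shares bases 1 to 149 with RNU1-1, so a read that does not cover base 150 matches both. How such reads were counted is not given, so its counts cannot be told apart from reads of the copies. Per identical copy it had 0.515, 0.554 and 0.517 counts in control nuc and 0.583, 0.660 and 0.528 in control cyto, which overlap (exact permutation p = 0.2). In siSSB cells it had 0.517 to 0.561 in nuc and 0.608 to 0.655 in cyto, which do not (exact permutation p = 0.1, the smallest possible). Over all 18 libraries the proportion stayed between 0.515 and 0.688, the latter in control total 1. RNVU1-17 had 4.94 ± 1.37 counts per 1000 counts of the copies in control nuc and 7.79 ± 0.974 in control cyto (SD, n = 3 each), and 4.91 ± 0.878 and 7.31 ± 0.502 in siSSB cells. These do not overlap (exact permutation p = 0.1 in each), with ratios of 1.58 and 1.49 beside the 17 and 17.9 of the 4 variants.

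The rows that were low in the nucleus were then read against their sequence, with each row taken relative to the 8 copies (log2 with 0.5 added to the counts), which removes the scaling. For each row the exact run of letters shared with RNU1-1 across the Sm site was measured. Of 36 other rows with at least 100 counts, 22 held such a run of 20 nt or more. Their median nuclear minus cytoplasmic log2 difference in control cells was -4.54, from -6.02 to 0.01, and 17 lay under -2. The 14 rows with a shorter run or a changed site had a median of -1.21, from -5.02 to 0.21, with 5 under -2. Both groups hold rows near the floor in control nuc, whose values rest on single reads. The lowest of the first group, RNVU1-34, had 1, 0 and 0 counts there, and RNVU1-22 had 0, 2 and 1. The lowest of the second group, the row named U1_snRNA on chromosome 17, had 2, 4 and 4. In siSSB cells the medians were -4.25 and -1.47, with 18 and 4 rows under -2. Both limits were set after the values had been seen, the rows share libraries and letters, and no test was made.

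Identity with RNU1-1 over the whole RNA is given beside these values. RNU1-11P (95.7% identity, run of 48 nt) was at -4.09, RNVU1-1 (96.3%, 62 nt) at -4.33, RNVU1-19 (93.9%, 55 nt) at -4.43 and RNU1-138P (90.2%, 26 nt) at -4.83 in control cells. RNU1-16P (84.8%, 29 nt) was at -5.42, RNU1-132P (84.1%, 28 nt) at -5.25 and RNU1-22P (76.2%, 29 nt) at -5.56. RNU1-89P, closer to RNU1-1 than RNU1-11P (97.0%, 30 nt), was at -2.83. Against these, RNU1-19P (93.3%), RNU1-136P (90.2%) and RNU1-88P (70.7%), whose site is changed, were at -0.98, -0.42 and 0.02, but RNU1-83P (92.1%), RNVU1-15 (89.6%) and RNVU1-14 (91.5%), whose site is also changed, were at -2.39, -2.46 and -1.96.

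Several rows lay far from the median of their group, a grouping formed after the values had been seen. RNVU1-7 shares bases 1 to 149 with RNU1-1 and was at -0.15, RNVU1-17 shares bases 124 to 164 and was at -0.69, and RNVU1-2 shares bases 120 to 139 and was at 0.01. In RNVU1-17 the change A123G lies just before the Sm site. RNVU1-21, whose site is changed, was at -4.68 with 118 counts in all, and the row named U1_snRNA on chromosome 17 was at -5.03 with 388. In siSSB cells the 4 variants were at -4.35 (RNU1-11P), -4.44 (RNVU1-1), -4.48 (RNVU1-19) and -5.08 (RNU1-138P), close to their control values beside SDs over libraries of 0.24 to 0.52.

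**Figure D5:**
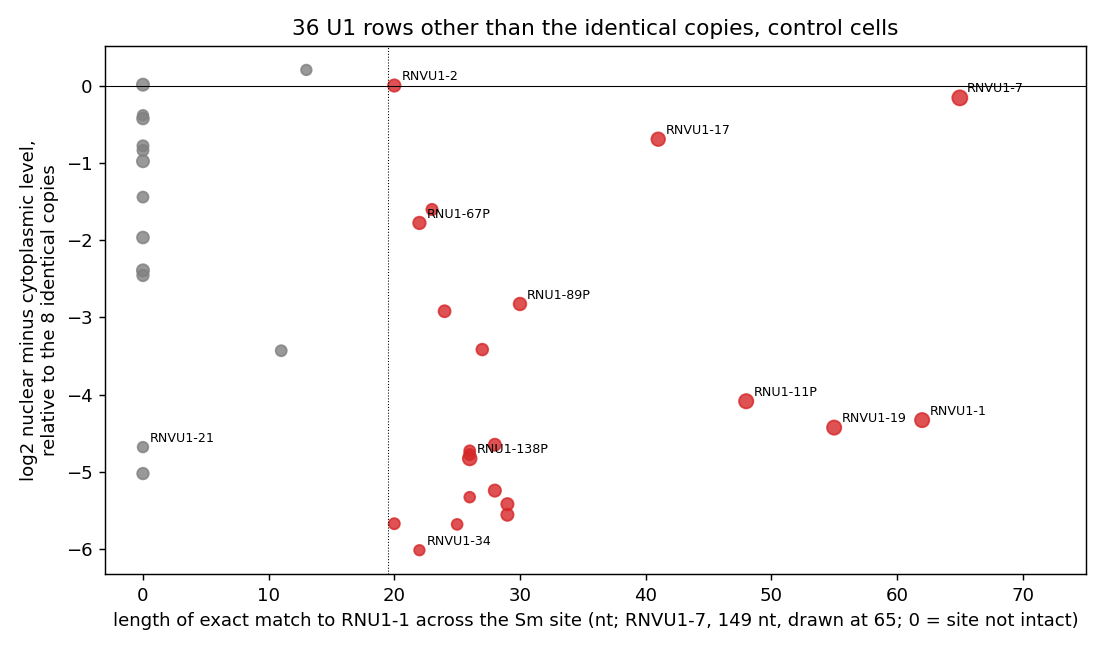
Nuclear minus cytoplasmic log2 level relative to the identical copies in control cells against the length in nt of the exact match to RNU1-1 across the Sm site, for 36 U1 rows with at least 100 counts (red, 20 nt or more, and grey, shorter or none, point size growing with total counts). Most red points lie under -2, with RNVU1-7, RNVU1-17 and RNVU1-2 near 0, and most grey points lie above -2, with RNVU1-21 at -4.68.

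In total RNA the same relative values were compared between siSSB and control. Of the 36 rows, 7 were higher and 1 lower in siSSB with no overlap between the groups, where 14.9% of all features with at least 100 counts were higher and 1.32% lower in the same measure. The 7 lay on both sides of the fraction comparison. RNU1-138P (0.92 ± 0.67), RNU1-132P (1.00 ± 0.71) and RNU1-16P (1.09 ± 0.69) were lower in the nucleus of control cells under TMM, and the row named U1_snRNA on chromosome 12 (1.47 ± 0.69), RNU1-136P (0.88 ± 0.54), RNU1-34P (0.85 ± 0.51) and RNU1-19P (0.44 ± 0.20) were higher there, with values given as the difference of means with the SD over libraries (n = 3 and 3). The 1 lower row was RNVU1-6 (-0.64 ± 0.28). RNU1-11P (0.63 ± 0.49), RNVU1-1 (0.61 ± 0.57) and RNVU1-19 (0.76 ± 0.61) overlapped between the groups. Control total 1 was the lowest control library for RNU1-138P, RNU1-132P, RNU1-16P and these 3 rows. Without it the differences were 0.40 for RNU1-138P, 0.51 for RNU1-132P, 0.68 for RNU1-16P, 0.26 for RNU1-11P, 0.17 for RNVU1-1 and 0.29 for RNVU1-19. Relative to the copies it was also the lowest control library for RNU1-136P, RNU1-19P and the row on chromosome 12. For these the difference without it was not computed, so they are not shown to be free of that library. Mitochondrial tRNA counts per U1 count overlapped between the whole-cell groups (control, 0.674 to 1.25, siSSB, 0.735 to 1.28), and the part of any fraction mix in these values was not tested.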

How the data were processed

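Small RNA was extracted with the mirVana PARIS kit and made into libraries with the NEBNext small RNA kit. The authors deposited one table of raw read counts per RNAcentral feature for the 18 libraries. Per the labels, Bowtie2 and bedtools were used with hg38. For these small RNA libraries the tool versions, the handling of strand and that of reads matching several places are not given in the sources used here, and versions that the study states for other data types were not carried over. Each U1 row spans its gene with about 25 nt on either side. Since near-identical copies share reads, counts of single copies are uncertain, and counts on rows inside host genes cannot be told from host RNA where strand is unknown.

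Raw counts were tested across all features with edgeR 4.0.16 (R 4.3.3, limma 3.58.1), with TMM factors, filterByExpr, the quasi-likelihood test and Benjamini-Hochberg adjustment. A call is an adjusted p under 0.05. Only the groups compared entered each fit. Alternatives were library size alone, RLE factors, snoRNA total, no filter, DESeq2 1.42.0, features of at most 500 nt, a replicate block and single libraries left out, plus, added after the data were seen, values without control total 1. The edgeR fit was tested on simulated data for the knockdown in total RNA alone, which does not cover the fraction fits. Named rows were the canonical names, RNVU1 rows with at least 10 counts, the 10 other most counted rows, knockdown calls and the 3 largest fraction calls in each direction. RNU1-19P, RNU1-34P, RNU1-77P, RNU1-136P and the U1_snRNA rows fell outside this rule or were named after their values were seen. The members and lists were chosen with earlier results of these data known. Gene positions are from GENCODE v44 (hg38, counted from 1). Sequences are from hg38 and were aligned to RNU1-1. P-values cover the spread between these 3 libraries a group, and the precision of low rows is set by counting error. No feature length or copy number correction was applied.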

Additional observations from a re-analysis of the deposited data

How the results depend on the processing

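In the knockdown comparisons no U1 row was called under any alternative run, except 1 called lower in total RNA with no filter on low counts (RNVU1-17). The U1 sum in total RNA, at -0.60 on the log2 scale under TMM, was -0.00997 by library size alone and 0.16 by snoRNA total, and -0.83 to -0.14 with single libraries left out. In the nucleus it was -0.07, 0.30 by library size alone, 0.24 by snoRNA total and -0.26 to 0.04 with libraries left out. In the cytoplasm it was 0.36, 0.58 by library size alone, 0.79 by snoRNA total and 0.13 to 0.81 with libraries left out, and the nuclear minus cytoplasmic effect of -0.57 ran from -0.89 to -0.32. The counts of called rows stayed at 0 in all these comparisons when single libraries were left out.

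For nucleus against cytoplasm, U1 rows called higher went from 23 in control and 22 in siSSB cells to 0 and 0, both by library size alone and by snoRNA total. Rows called lower went from 7 and 9 to 30 and 39 by library size alone and to 44 and 43 by snoRNA total. Of all features, 96.25% and 95.95% were called lower by library size alone, and 97.51% and 97.62% by snoRNA total. In control cells lower rows were 11 with no filter, 4 by DESeq2 and 1 with features of at most 500 nt, which gave 4 in siSSB cells. Of those short features 42.39% were lower in control and 41.84% in siSSB cells. The U1 sum of 3.52 in control and 2.92 in siSSB cells became -0.60 and -0.88 by library size alone and -2.37 and -2.91 by snoRNA total. With single libraries left out, higher calls were 19 to 27 and lower calls 1 to 8 in control cells, and 20 to 24 and 7 to 10 in siSSB cells, with U1 sums of 3.26 to 3.87 and 2.76 to 3.13. The cause was not tested, beyond the shift of all features given with the fraction results.

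Single rows that turned by library size alone, and by snoRNA total, were in control cells RNU1-1 (-0.45 and -2.22), RNVU1-7 (-0.49 and -2.27), RNVU1-17 (-1.03 and -2.82), RNU1-89P (-3.13 and -4.90), RNU1-67P (-2.06 and -3.85), RNVU1-2 (-0.15 and -1.95), RNU1-83P (-2.53 and -4.31), RNU1-88P (-0.15 and -1.91), RNVU1-14 (-2.14 and -3.97), RNVU1-8 (-3.76 and -5.54), RNVU1-15 (-2.72 and -4.51), RNVU1-6 (-3.41 and -5.22) and RNVU1-3 (-3.32 and -5.06). In siSSB cells they were RNU1-1 (-0.70 and -2.73), RNVU1-7 (-0.84 and -2.87), RNVU1-17 (-1.19 and -3.23), RNU1-89P (-3.36 and -5.40), RNU1-67P (-2.24 and -4.28), RNVU1-2 (-1.14 and -3.18), RNU1-83P (-3.40 and -5.43), RNU1-88P (-1.66 and -3.69), RNVU1-14 (-2.61 and -4.68), RNVU1-15 (-2.31 and -4.37) and RNVU1-32 (-1.92 and -3.95). RNU1-1 stands for the 8 identical copies here. A row is listed where its sign changed and it was called under TMM or under the other scaling. Not called under TMM were RNVU1-8, RNVU1-6 and RNVU1-3 in control cells, and RNU1-89P and RNU1-83P in siSSB cells.

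Whether replicate numbers pair the libraries was not settled. Correlations of same-numbered deviations ran from -0.42 to 0.13, and those of different numbers from -0.31 to 0.43. Deviations from a group mean of 3 libraries are bound to each other, so these values cannot decide it. With the replicate block, 24 rows were higher and 6 lower in control cells and 22 and 9 in siSSB cells, and 0 were called in the knockdown comparisons and the interaction.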
